A study of Saccharomyces cerevisiae S288C with 72 samples.

Results

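The phosphate starvation genes described here are 10 genes of budding yeast, chosen by name: PHO84, PHO89, PHO5, PHO8, PHO11, PHO12, PHO81, SPL2, PHM6 and VTC3. All 10 were present among the 5803 entries of the expression table, and all 10 were among the 5721 genes tested.

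When a yeast cell runs short of phosphate, the cyclin-dependent kinase Pho85 with its cyclin Pho80 is inhibited by Pho81, and the transcription factor Pho4 stays in the nucleus and activates the PHO genes together with Pho2. The induced proteins bring phosphate in, release it from organic compounds outside the cell and in the vacuole, and store it as vacuolar polyphosphate. Pho4 binds the hexamer CACGTG and, less strongly, CACGTT.

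The strains were S288C Saccharomyces cerevisiae lacking NDE1, NDE2 and NDI1 (nde1∆ nde2∆ ndi1∆, called the NADH dehydrogenase mutant here), lacking COX4 (cox4∆, called the cox4 mutant), and wild type. NDE1, NDE2 and NDI1 encode mitochondrial NADH dehydrogenases that pass electrons to ubiquinone, and COX4 encodes a subunit of cytochrome c oxidase. All 3 strains grew at 30 C in flasks of a defined medium with ammonium and 2% glucose, and no treatment or change of phosphate is stated. RNA was sequenced at 24 matched times from 0 to 58 h, 1 library per strain and time, 72 in all. Each genotype was represented by 1 strain, and no replicate culture is stated. Values are TPM, the share of all transcripts that a gene takes, a level corrected for transcript length, rescaled to a common total over nuclear genes. Times were grouped into an early window of 0 to 8 h (7 libraries per strain), a middle window of 9 to 16 h (8) and a late window of 18 to 58 h (9). The times of a window stood in for replicates, so p-values measure the spread between times of these cultures and not between cultures. A gene was called higher or lower when its Benjamini-Hochberg adjusted p, over all genes tested with limma, was under 0.05 and its fold at least 2 on the scale of log2(TPM + 1).

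The sequences upstream of the members were read because all 10 are described as genes of 1 regulon. Every member had at least 1 match to CACGTG or CACGTT, on either strand, in the 600 bases before its start codon. Among 5999 genes of the R64 reference (sacCer3), 24.4% had such a match, 7.23% for CACGTG and 18.8% for CACGTT. PHO84 and SPL2 had the most, 4 each, and all 4 of SPL2 were CACGTG. A match says only that the letters are there. Since the members were picked by name from 1 regulon, their count against all genes is no test. PHO11 and PHO12 also have nearly the same upstream bases. The windows of 300 bases below belong to the 4 members on which most of the results turn, the 2 carriers, the main acid phosphatase and SPL2. Each was chosen as the window with the most matches that ends at least 60 bases before the start codon. Each is printed 5' to 3' along the gene's own strand, from the RefSeq genome, with each match to CACGTG, to CACGTT or to its complement AACGTG in capitals. They lie at chrXIII:25937-26236, minus strand, for PHO84, chrII:798686-798985, minus strand, for PHO89, chrII:431014-431313, minus strand, for PHO5, and chrVIII:375162-375461, minus strand, for SPL2.
PHO84: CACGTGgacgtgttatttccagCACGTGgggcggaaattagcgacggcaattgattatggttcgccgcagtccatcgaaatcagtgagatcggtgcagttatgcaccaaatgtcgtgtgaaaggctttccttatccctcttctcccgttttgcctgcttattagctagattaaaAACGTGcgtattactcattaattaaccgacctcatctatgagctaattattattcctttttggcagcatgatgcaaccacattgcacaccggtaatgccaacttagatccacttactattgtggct
PHO89: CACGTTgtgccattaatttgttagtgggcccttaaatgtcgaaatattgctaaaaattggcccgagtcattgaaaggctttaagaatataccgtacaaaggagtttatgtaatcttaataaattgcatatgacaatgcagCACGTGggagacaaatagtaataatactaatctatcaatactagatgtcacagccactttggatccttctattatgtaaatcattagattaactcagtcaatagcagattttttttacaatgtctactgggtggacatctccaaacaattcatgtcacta
PHO5: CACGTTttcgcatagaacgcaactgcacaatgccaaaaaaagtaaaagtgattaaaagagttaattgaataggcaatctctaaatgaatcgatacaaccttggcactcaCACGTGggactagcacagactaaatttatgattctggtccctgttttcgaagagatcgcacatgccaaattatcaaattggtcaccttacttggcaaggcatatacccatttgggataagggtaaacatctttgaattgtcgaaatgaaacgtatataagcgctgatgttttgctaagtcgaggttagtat
SPL2: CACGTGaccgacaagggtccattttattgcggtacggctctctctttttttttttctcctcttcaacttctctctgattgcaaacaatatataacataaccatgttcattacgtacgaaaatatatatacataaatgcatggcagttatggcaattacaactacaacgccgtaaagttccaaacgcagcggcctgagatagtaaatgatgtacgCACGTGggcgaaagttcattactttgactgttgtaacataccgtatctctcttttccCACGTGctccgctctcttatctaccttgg

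The PHO84 window begins with a pair of CACGTG matches, at 436 and 414 bases before the start codon, and holds a match to AACGTG, which reads CACGTT on the other strand, at 262. The PHO89 window holds 1 CACGTT at 463 and 1 CACGTG at 323 bases. The PHO5 window likewise holds 1 CACGTT at 362 and 1 CACGTG at 253 bases. The SPL2 window holds 3 CACGTG, at 361, 147 and 90 bases before the start codon, and the fourth lies nearer at 31. All 4 windows thus hold CACGTG. These genes were picked for the results they carry, and whether the matches bear on their levels was not tested.

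The deleted genes matched the labels in all 72 libraries. NDE1, NDE2 and NDI1 did not exceed 3.24 TPM in the NADH dehydrogenase mutant, while NDE1 did not fall below 104 TPM in wild type. COX4 did not exceed 5.23 TPM in the cox4 mutant, and its lowest level was 321 TPM in wild type. HXT3, for a low-affinity glucose carrier, served as a landmark: its largest loss, taken as a ratio of neighbouring times, fell between 11 and 12 h in the NADH dehydrogenase mutant, between 13 and 14 h in the cox4 mutant and between 15 and 16 h in wild type. Taken in TPM, the largest loss was the same in the NADH dehydrogenase mutant, and 1 h earlier in the cox4 mutant (501 TPM at 13 h, against 1821 TPM at 12 h) and in wild type. The read depth of the libraries is unknown. The library codes in the labels carry a letter that is particular to a strain and changes in each strain between 13 and 14 h, and neither strain nor time can be told apart from it.

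PHO12 and SPL2 were higher in both mutants in the early window, and PHO89 and SPL2 in the late window. In the NADH dehydrogenase mutant 3 of 10 members, PHO84, PHO12 and SPL2, were called higher than wild type in the early window against 0.192% of all genes, and none lower, against 0.0524%. In the cox4 mutant 3 of 10, PHO11, PHO12 and SPL2, were called higher, against 0.472% of all genes, and again none lower, against 0.297%. The median log2 difference of the 10 members was 0.89 in the NADH dehydrogenase mutant and 1.02 in the cox4 mutant, while the median of all genes tested was 0.07 and -0.06. In the middle window PHO89 and SPL2 were the 2 of 10 members called in each mutant, both higher, against 0.787% of all genes in the NADH dehydrogenase mutant and 0.507% in the cox4 mutant, while 3.67% and 2.32% of all genes were called lower. The same pair was called higher in the late window in each mutant, against 2.71% of all genes in the NADH dehydrogenase mutant and 2.46% in the cox4 mutant. No member was called lower in either mutant in the late window, where 29.4% and 26.3% of all genes were.

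The late comparisons stand on a shifted scale. The median of all genes tested was -0.65 on the log2 scale in the late NADH dehydrogenase mutant and -0.61 in the late cox4 mutant relative to wild type, and -0.34 and -0.27 in the middle window. Scaling by the median of ratios moves that median to 0.00 in both late comparisons, and then 3 of 10 members (PHO5 as well) were higher in the late NADH dehydrogenase mutant. The shares of all genes given above were counted without this scaling and do not apply to this count. Relative to the median gene, PHO89 was higher by 3.83 in the late NADH dehydrogenase mutant and by 3.62 in the late cox4 mutant. SPL2 was higher by 3.03 and 2.70 on the same measure. The other 8 members lay between 0.01 and 1.31 above the median gene in the NADH dehydrogenase mutant, and between -0.30 and 0.93 in the cox4 mutant. A bulk library cannot tell a change in RNA per cell from a change in the share of cells that hold it.

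**Figure D1:**
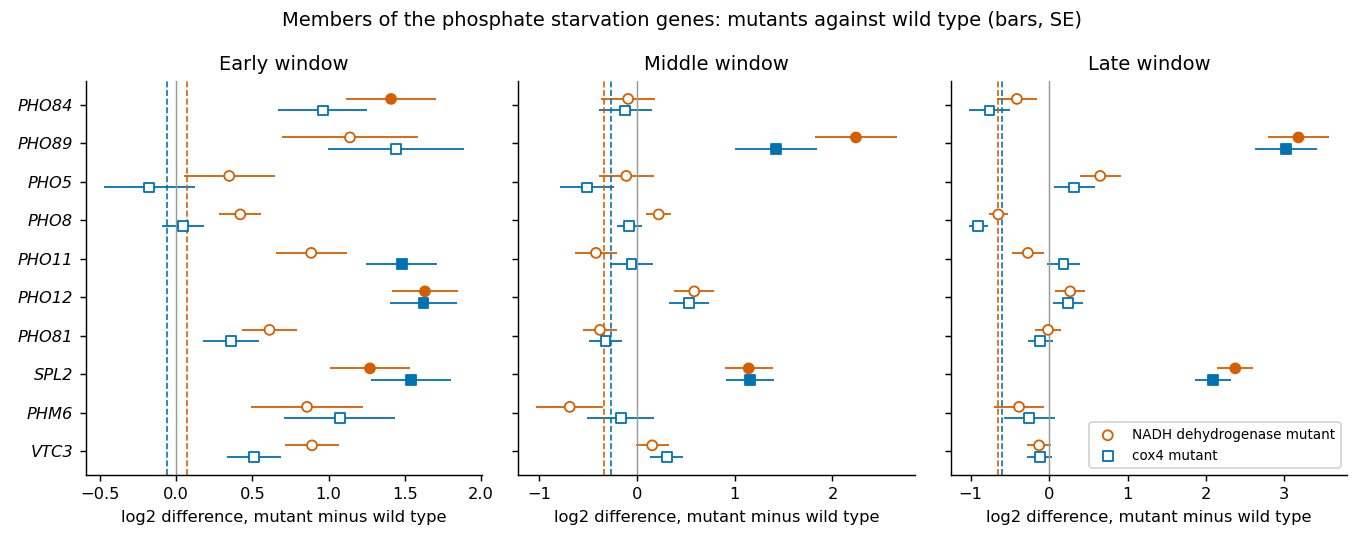
Log2 difference in rescaled TPM (mutant minus wild type) of the 10 members in the early, middle and late windows, with bars of 1 standard error from limma. Circles are the NADH dehydrogenase mutant and squares the cox4 mutant, filled where called, and dashed lines mark the median of all genes tested. PHO89 and SPL2 stand far to the right in the late window, at 3.18 and 2.38 in the NADH dehydrogenase mutant.

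PHO84 (YML123C, chrXIII:24037-25800), the high-affinity phosphate and proton symporter of the plasma membrane, was the most abundant member in the early window in every strain. In the early window it had a lowest, median and highest level of 483, 504 and 613 TPM in the NADH dehydrogenase mutant, 310.0, 381 and 457 TPM in the cox4 mutant, and 165, 210 and 225 TPM in wild type. Each mutant lay wholly above wild type, and the cox4 mutant lay wholly below the NADH dehydrogenase mutant. The early log2 difference was 1.41 ± 0.29 (SE) in the NADH dehydrogenase mutant, with adjusted p = 0.00384 (limma), and PHO84 was higher at 7 of 7 times. Without the time point as a block this call is lost, at adjusted p = 0.0803. The early cox4 mutant had 0.96 ± 0.29 with adjusted p = 0.0548, higher at 7 of 7 times, and passed neither threshold. The same contrast passed both when scaled by the median of ratios, at 1.01. The early difference of the cox4 mutant from the NADH dehydrogenase mutant was -0.45 ± 0.29, with adjusted p = 0.405.

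PHO84 kept its mutant level until about the loss of HXT3. In the NADH dehydrogenase mutant it was 521 TPM at 11 h, 155 at 12 h and 128 at 13 h. The cox4 mutant had 532 TPM at 12 h, 257 at 13 h and 63.5 at 14 h. In wild type it was highest at 12 h, at 272 TPM, and stood at 119 TPM at 15 h. It was then 249 TPM at 16 h and 212 at 18 h, so no such step was seen there across the loss of HXT3 placed as a ratio. Placed in TPM, that loss fell between 14 and 15 h in wild type, so the low library of 15 h came right after it. PHO84 had risen again by 16 h, and it was not among the members counted as lower on that placing either. Late levels ran from 79.4 through a median of 93.9 to 106 TPM in the NADH dehydrogenase mutant, from 48.8 through 68.0 to 112 TPM in the cox4 mutant, and from 45.7 through 155 to 212 TPM in wild type. The ranges overlapped, since wild type was at 96.6 TPM at 38 h and 45.7 TPM at 58 h. The late differences, -0.41 ± 0.26 (adjusted p = 0.14, limma) and -0.76 ± 0.26 (adjusted p = 0.0074), were under 2-fold, and relative to the median gene they were 0.24 and -0.15. PHO84 has an antisense transcript at its locus, and the strand setting of the quantification is not given, so these levels could include it.

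PHO89 (YBR296C, chrII:796798-798522), a sodium and phosphate cotransporter that works best in alkaline medium, followed an almost opposite course in the mutants. Its early level ran from 1.93 through a median of 11.6 to 26.1 TPM in the NADH dehydrogenase mutant, from 8.00 through 11.2 to 32.0 TPM in the cox4 mutant, and from 1.33 through 2.58 to 16.0 TPM in wild type. These ranges overlapped, and neither early difference was called, at 1.14 ± 0.45 (adjusted p = 0.543, limma) in the NADH dehydrogenase mutant and 1.44 ± 0.45 (adjusted p = 0.0614) in the cox4 mutant. By 10 h the level was 1.82 TPM in the NADH dehydrogenase mutant, 1.63 in the cox4 mutant and 2.42 in wild type.

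In the mutants the rise of PHO89 came within a few hours of the loss of HXT3. The NADH dehydrogenase mutant had 3.88 TPM at 12 h, 62.3 at 13 h and 156 at 14 h, its highest level. The cox4 mutant had 7.44 TPM at 14 h, 143 at 15 h and 117 at 16 h. Wild type had 4.28 TPM at 15 h, 9.91 at 16 h and 19.6 at 18 h, its highest. Late levels ran from 57.5 through a median of 84.0 to 111 TPM in the NADH dehydrogenase mutant, from 53.3 through 69.1 to 95.9 TPM in the cox4 mutant, and from 3.23 through 6.83 to 19.6 TPM in wild type. Every late library of either mutant lay above every late library of wild type. The late log2 difference was 3.18 ± 0.39 in the NADH dehydrogenase mutant (adjusted p = 1.08e-09, limma) and 3.02 ± 0.39 in the cox4 mutant (adjusted p = 4.47e-09), and the mutant was higher at 9 of 9 times in each. In the middle window PHO89 was higher by 2.24 ± 0.42 in the NADH dehydrogenase mutant (adjusted p = 8.27e-05) and by 1.43 ± 0.42 in the cox4 mutant (adjusted p = 0.00951). More of the middle libraries lay past the loss of HXT3 in each mutant than in wild type, and these differences were not tested with that timing matched. The middle call of the cox4 mutant is lost without 15 h or without 16 h, down to 0.95, and without the block, at adjusted p = 0.124. With the middle window held to 9 to 13 h, the times that share 1 code letter in each strain, the differences were 1.06 and 0.48 and neither was called.

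**Figure D2:**
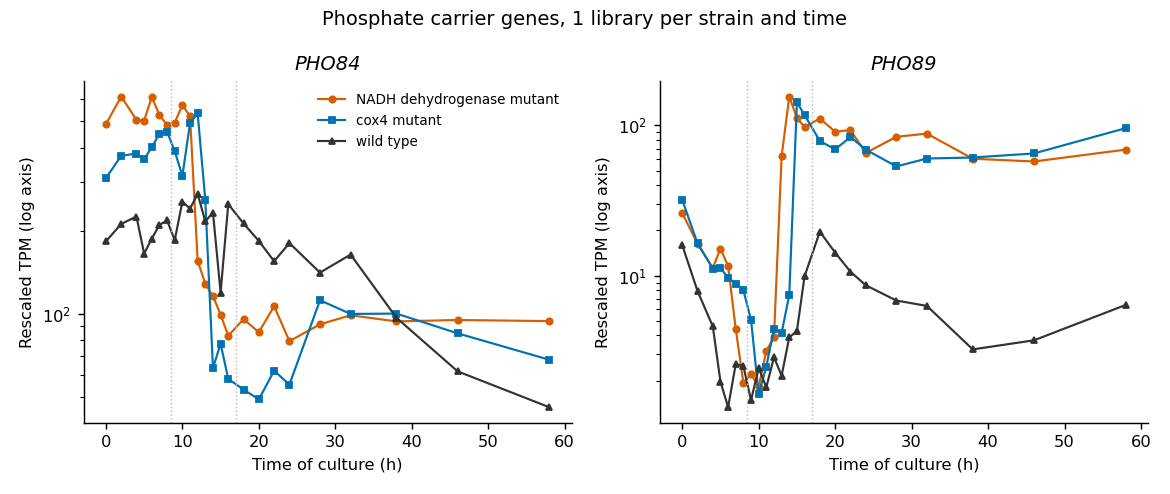
Rescaled TPM (log axis) of the phosphate carrier genes PHO84 and PHO89 against time of culture in hours, 1 point per library, with dotted lines between the windows. PHO84 is 521 TPM at 11 h and 155 at 12 h in the NADH dehydrogenase mutant, while PHO89 is 3.88 TPM at 12 h and 156 at 14 h.

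PHO5 (YBR093C, chrII:429548-430951), the main repressible acid phosphatase of the cell surface, passed through a peak at 10 to 11 h in all 3 strains. The peak was 435 TPM at 10 h in the NADH dehydrogenase mutant, 260.5 TPM at 11 h in the cox4 mutant and 245 TPM at 10 h in wild type. Each strain had started between 12.6 and 21.9 TPM at 0 h. The peak came before the loss of HXT3 in all 3 strains. In the middle window against the early one it was higher by 1.19 ± 0.54 in the NADH dehydrogenase mutant (adjusted p = 0.0425, limma), by 1.31 ± 0.54 in the cox4 mutant (adjusted p = 0.029) and by 1.65 ± 0.54 in wild type (adjusted p = 0.00795). The call is lost in the NADH dehydrogenase mutant without any 1 of 8 single times, down to 0.84, and in the cox4 mutant without any 1 of 5, down to 1.01.

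After the peak PHO5 was low again. Late levels ran from 31.8 through a median of 42.8 to 63.8 TPM in the NADH dehydrogenase mutant, from 20.3 through 39.5 to 52.5 TPM in the cox4 mutant, and from 23.0 through 28.0 to 33.7 TPM in wild type. The ranges overlapped, although the NADH dehydrogenase mutant was higher at 9 of 9 times. The late difference was 0.65 ± 0.26 there (adjusted p = 0.0223, limma), under the 2-fold limit, and 1.35 by the median of ratios. PHO5 and PHO3, a neighbouring acid phosphatase gene, are 86.5% identical over 1404 coding bases.

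PHO11 (YAR071W, chrI:225460-226863) and PHO12 (YHR215W, chrVIII:552099-553502) encode further secreted acid phosphatases and lie near chromosome ends. They differ at 4 of 1404 coding bases (99.7% identity), and their 600 upstream bases are 99.3% identical. The stretch of 60 bases below holds 2 of those 4 differences, in capitals, and shows how little separates reads of the copies. It lies at chrI:226668-226727, plus strand, and chrVIII:553307-553366, plus strand, in the RefSeq genome.
PHO11: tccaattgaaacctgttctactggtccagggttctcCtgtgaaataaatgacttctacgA
PHO12: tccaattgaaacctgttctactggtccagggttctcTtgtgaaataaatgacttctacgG

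The split between PHO11 and PHO12 is therefore uncertain, and their sum is given as well. Early sums ran from 66.5 through a median of 162 to 272 TPM in the NADH dehydrogenase mutant, from 108 through 161 to 248 TPM in the cox4 mutant, and from 22.3 through 44.5 to 126 TPM in wild type. The ranges overlapped, and in every strain the sum was highest at 0 h and lowest of the window at 8 h. The sum was higher by 1.53 ± 0.21 in the early NADH dehydrogenase mutant (adjusted p = 1.38e-06, limma) and by 1.61 ± 0.21 in the early cox4 mutant (adjusted p = 3.82e-07). Taken alone, PHO12 was called higher in both (1.63 ± 0.22 and 1.62 ± 0.22), and PHO11 in the cox4 mutant (1.48 ± 0.23, adjusted p = 2.73e-05). PHO11 had 0.89 ± 0.23 in the NADH dehydrogenase mutant, with adjusted p = 0.0537. Both were higher than wild type at 7 of 7 early times in each mutant. In the late window the sum was not called, at 0.11 ± 0.18 (adjusted p = 0.595) in the NADH dehydrogenase mutant and 0.22 ± 0.18 (adjusted p = 0.258) in the cox4 mutant. PHO12 held between 50.0% and 90.3% of the sum over all libraries.

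PHO8 (YDR481C, chrIV:1418550-1420250), the alkaline phosphatase of the vacuole, varied least of the members within each mutant. Its highest level over 24 libraries was 2.08 times its lowest in the NADH dehydrogenase mutant, 1.78 times in the cox4 mutant and 3.72 times in wild type. Late levels ran from 83.9 through a median of 97.9 to 114.2 TPM in the NADH dehydrogenase mutant, from 65.9 through 82.0 to 98.7 TPM in the cox4 mutant, and from 114.6 through 154 to 194 TPM in wild type. Every late mutant library lay below every late wild-type library. The differences, -0.65 ± 0.12 (adjusted p = 5.89e-06, limma) and -0.90 ± 0.12 (adjusted p = 7.63e-09), were under 2-fold and so not called. By the median of ratios they were 0.06 and -0.25, so the direction in the NADH dehydrogenase mutant turned with the scaling.

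**Figure D3:**
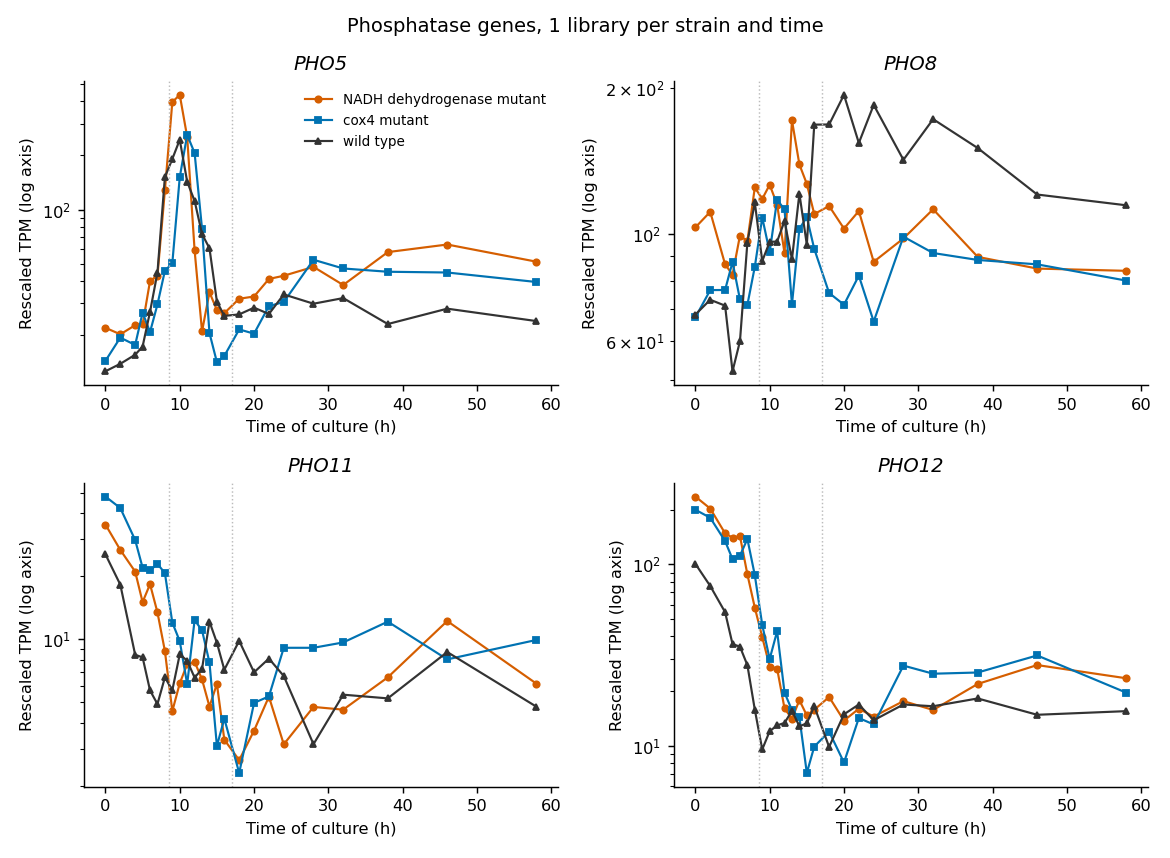
Rescaled TPM (log axis) of the phosphatase genes PHO5, PHO8, PHO11 and PHO12 against time of culture in hours, 1 point per library, with dotted lines between the windows. PHO5 peaks at 435, 260.5 and 245 TPM at 10 to 11 h, and PHO12 is highest at 0 h in all 3 strains.

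SPL2 (YHR136C, chrVIII:374654-375100), whose product restrains low-affinity phosphate uptake, was the one member called higher in both mutants in all 3 windows. Early levels ran from 59.7 through a median of 119 to 157 TPM in the NADH dehydrogenase mutant, from 101 through 124 to 209.7 TPM in the cox4 mutant, and from 12.4 through 56.2 to 74.3 TPM in wild type. The cox4 mutant lay wholly above wild type, and the NADH dehydrogenase mutant overlapped it through its library of 8 h. The early difference was 1.27 ± 0.26 in the NADH dehydrogenase mutant (adjusted p = 0.00377, limma) and 1.54 ± 0.26 in the cox4 mutant (adjusted p = 9.43e-05). In the middle window it was 1.14 ± 0.24 (adjusted p = 0.000346) and 1.16 ± 0.24 (adjusted p = 0.000474), with each mutant higher at 8 of 8 times. With the middle window held to 9 to 13 h the call of SPL2 is lost in the NADH dehydrogenase mutant, at 0.94 (adjusted p = 0.0676), and kept in the cox4 mutant, at 1.22 (adjusted p = 0.00851).

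Late SPL2 was 40.1 TPM at 18 h, 64.5 at 28 h and 128 at 58 h in the NADH dehydrogenase mutant. It was 31.7 TPM at 18 h, 64.9 at 28 h and 113.5 at 58 h in the cox4 mutant. Wild type had 15.9 TPM at 18 h, 15.5 at 28 h and 6.80 at 58 h. Every late mutant library lay above every late wild-type library, whose highest was 20.5 TPM. The change from early to late differed from wild type by 1.10 ± 0.35 in the NADH dehydrogenase mutant (adjusted p = 0.00491, limma), and was not called in the cox4 mutant, at 0.55 ± 0.35 (adjusted p = 0.163). The late difference was 2.38 ± 0.23 in the NADH dehydrogenase mutant (adjusted p = 1.17e-12, limma) and 2.09 ± 0.23 in the cox4 mutant (adjusted p = 4.38e-11), higher at 9 of 9 times in each. The ratio to wild type at matched late times ran from 2.52 to 18.8 in the NADH dehydrogenase mutant and from 1.99 to 16.7 in the cox4 mutant.

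PHO81 (YGR233C, chrVII:954674-958210), the inhibitor of the Pho80-Pho85 kinase, was the least abundant member by its mean over 72 libraries, at 8.46 TPM. Early levels ran from 11.6 to 14.5 TPM in the NADH dehydrogenase mutant, from 8.66 to 13.7 TPM in the cox4 mutant and from 5.81 to 12.9 TPM in wild type, and the ranges overlapped. PHO81 was not called in any comparison of strains, with 0.61 ± 0.18 (adjusted p = 0.144, limma) and 0.36 ± 0.18 (adjusted p = 0.361) in the early window. It was 13.3 TPM at 11 h, 6.79 at 12 h and 4.59 at 13 h in the NADH dehydrogenase mutant. It was 9.94 TPM at 12 h, 6.34 at 13 h and 3.55 at 14 h in the cox4 mutant. By 58 h it stood at 9.46 TPM in the NADH dehydrogenase mutant, 11.0 in the cox4 mutant and 6.02 in wild type.

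PHM6 (YDR281C, chrIV:1022007-1022321), a vacuolar protein gene of unknown function, and VTC3 (YPL019C, chrXVI:514511-517018), for a subunit of the complex that makes vacuolar polyphosphate, were not called between strains in the level of any window. Early PHM6 ran from 40.6 through a median of 52.8 to 90.5 TPM in the NADH dehydrogenase mutant, from 40.1 through 69.3 to 106 TPM in the cox4 mutant, and from 18.5 through 27.0 to 54.2 TPM in wild type. The ranges overlapped and both mutants were higher at 7 of 7 times, with differences of 0.86 ± 0.37 (adjusted p = 0.686, limma) and 1.07 ± 0.37 (adjusted p = 0.105). PHM6 was listed at the lowest value of the table, 0.1 TPM as deposited, in the NADH dehydrogenase mutant at 14 h.

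Early VTC3 ran from 69.5 through a median of 76.0 to 99.9 TPM in the NADH dehydrogenase mutant, from 46.5 through 60.4 to 85.0 TPM in the cox4 mutant, and from 30.0 through 41.6 to 72.3 TPM in wild type. Only the wild-type library of 7 h reached into the range of the NADH dehydrogenase mutant. The difference there was 0.89 ± 0.18 (adjusted p = 0.0029, limma), which passed the p threshold and not the 2-fold one, and it was 0.51 ± 0.18 (adjusted p = 0.114) in the cox4 mutant. Late VTC3 averaged 21.5 ± 7.3 TPM in the NADH dehydrogenase mutant, 22.3 ± 9.3 TPM in the cox4 mutant and 22.4 ± 2.1 TPM in wild type (SD, n = 9 times each).

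**Figure D4:**
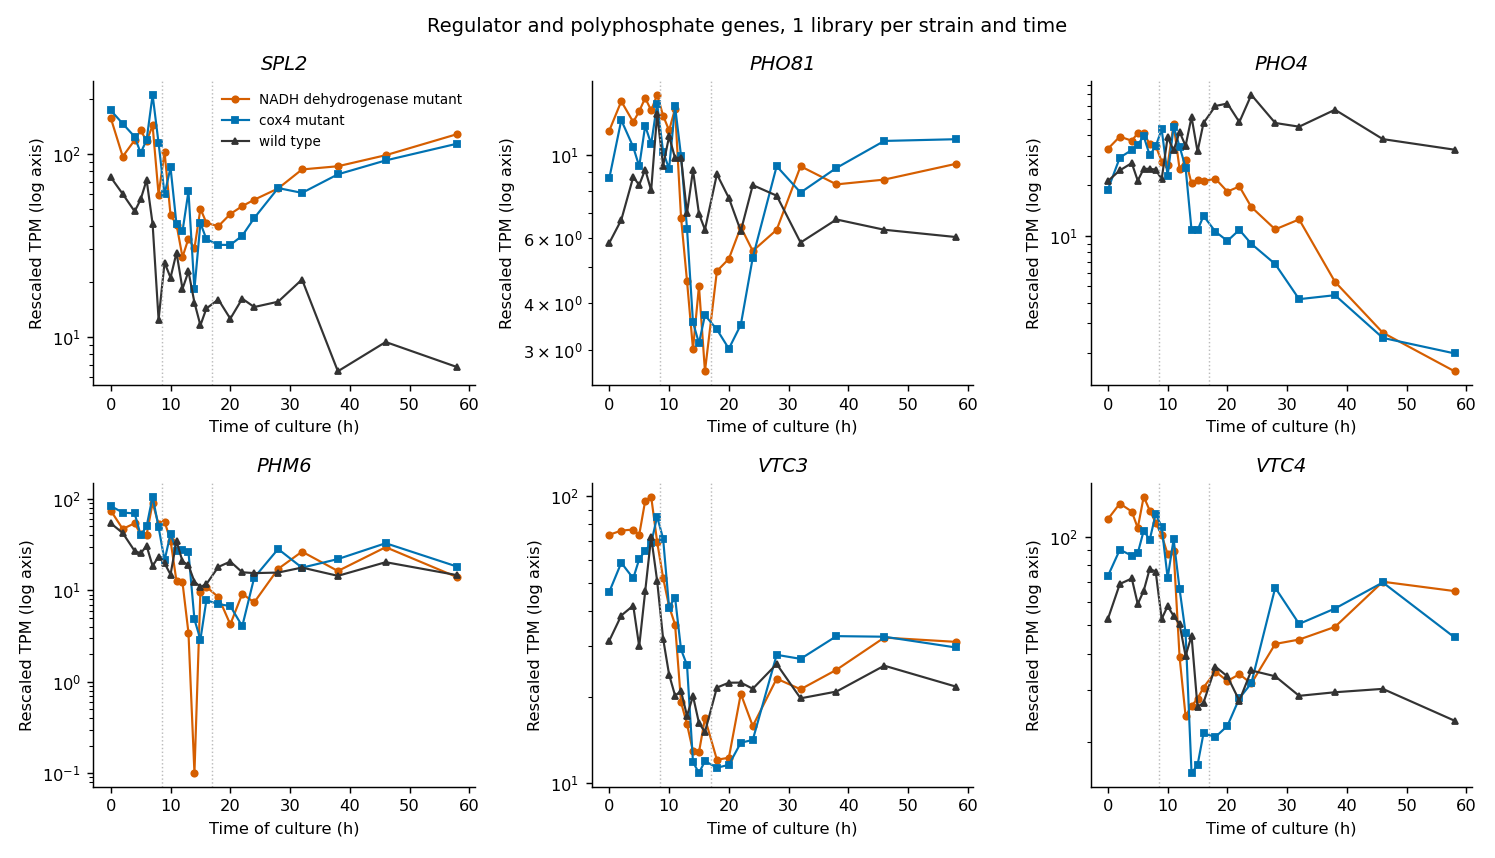
Rescaled TPM (log axis) of SPL2, PHO81, PHO4, PHM6, VTC3 and VTC4 against time of culture in hours, 1 point per library, with dotted lines between the windows. SPL2 reaches 128 TPM in the NADH dehydrogenase mutant and 6.80 TPM in wild type at 58 h, and late PHO4 is at most 21.9 TPM in the mutants and at least 32.7 TPM in wild type.

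No member was called between the cox4 mutant and the NADH dehydrogenase mutant in any of the 3 windows, where 0.192%, 0.28% and 0.297% of all genes were called by limma. At an unadjusted p under 0.05 there were 3, 1 and 2 members in the early, middle and late windows, and the share of all genes under it was not counted. Over all members and windows the largest log2 difference, cox4 minus NADH dehydrogenase mutant, was -0.81 ± 0.42 for PHO89 in the middle window (adjusted p = 0.327, limma). PHO11 was higher in the cox4 mutant at 7 of 7 early times, by 0.59 ± 0.23 (adjusted p = 0.181). A p that misses the threshold does not show that the 2 strains have the same levels.

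Over time, members of the mutants fell more often than they rose. In the NADH dehydrogenase mutant 5 of 10 members were lower late than early (PHO84, PHO11, PHO12, PHM6 and VTC3), against 40% of all genes, and 1 of 10, PHO89, was higher, against 12.2%. For the cox4 mutant the same 5 and SPL2 were lower, 6 of 10 against 34.3% of all genes, and PHO89 alone was higher, against 13.7%. In wild type PHO12 and SPL2 were lower, 2 of 10 against 14.7%, and PHO8 was higher, 1 of 10 against 18.4%. By the median of ratios the counts were 2 higher and 5 lower in the NADH dehydrogenase mutant, 2 higher and 4 lower in the cox4 mutant, and 0 higher and 2 lower in wild type. The shares of all genes above are of the main scale and do not apply to the counts by the median of ratios. The median of all genes was -0.71, -0.54 and 0.05 on the main scale in these comparisons. On that scale the shares of members lower are near those of all genes in the NADH dehydrogenase mutant and in wild type.

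The fall of PHO84 from the early to the late window was 2.50 ± 0.34 on the log2 scale in the NADH dehydrogenase mutant (adjusted p = 1.75e-09, limma) and 2.40 ± 0.34 in the cox4 mutant (adjusted p = 6.38e-09). PHO84 in wild type had -0.68 ± 0.34 (adjusted p = 0.075). PHO12 fell in every strain, with -2.79 ± 0.29 in the NADH dehydrogenase mutant, -2.81 ± 0.29 in the cox4 mutant and -1.43 ± 0.29 in wild type. PHO89 rose by 2.86 ± 0.64 in the NADH dehydrogenase mutant (adjusted p = 5.03e-05) and 2.39 ± 0.64 in the cox4 mutant (adjusted p = 0.000608), and had 0.82 ± 0.64 in wild type (adjusted p = 0.256). PHO8 rose in wild type by 1.04 ± 0.13 (adjusted p = 3.85e-10), just past the 2-fold limit. Leaving out 5 h, 6 h or 20 h ends that call, down to 0.95, and the call is also lost by the median of ratios.

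Between the middle and the early window PHO5 was called in every strain and PHO89 in none. PHO84 was called in the NADH dehydrogenase mutant, at -1.38 ± 0.35. In the cox4 mutant PHO84 had -0.96 ± 0.35 (adjusted p = 0.0147, limma), just under 2-fold, and leaving out any 1 of 6 times brings it past the limit. Against the early window 6 of 10 members were lower in the NADH dehydrogenase mutant (27.8% of all genes), 5 of 10 in the cox4 mutant (18.2%) and 3 of 10 in wild type (11%). The one member higher in each strain was PHO5, where 10.4%, 10.9% and 12.3% of all genes were higher. PHO12, SPL2 and VTC3 were lower in every strain. The wild-type call of VTC3, at -1.05 ± 0.28, is lost without 7 h or without 16 h.

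The change from early to late was then compared directly between strains. It differed from wild type for 8 of 10 members in the NADH dehydrogenase mutant. Of these, PHO84, PHO8, PHO11, PHO12, PHM6 and VTC3 were more negative in the mutant (6 of 10, against 33.5% of all genes), and PHO89 and SPL2 more positive (2 of 10, against 2.8%). In the cox4 mutant 5 of 10 differed: PHO84, PHO11, PHO12 and PHM6 more negative (4 of 10, against 26.1%) and PHO89 more positive (1 of 10, against 3.51%). The median of all genes was -0.72 and -0.56 in these tests. By the median of ratios 4 members were called in each mutant, 3 more positive (PHO89, SPL2 and PHO5) and 1 more negative (PHO84). The shares of all genes above are of the main scale and do not apply to these 4. The difference for PHO84 was -1.82 ± 0.39 in the NADH dehydrogenase mutant (adjusted p = 8.33e-05, limma) and -1.72 ± 0.39 in the cox4 mutant (adjusted p = 0.000232). For PHO89 it was 2.04 ± 0.60 (adjusted p = 0.0027) and 1.57 ± 0.60 (adjusted p = 0.0211). Without the time point as a block the calls of PHM6 are lost in both mutants, at adjusted p = 0.0837 and 0.075, and that of PHO89 in the cox4 mutant, at adjusted p = 0.145. Single times decide some of these calls in the NADH dehydrogenase mutant: PHO11 without 18 h, SPL2 without 38, 46 or 58 h, PHM6 without 7 or 20 h, and VTC3 without any 1 of 6 times. That of PHM6 in the cox4 mutant is lost without 7 h.

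Levels were also set side by side around the loss of HXT3, a description chosen after the values were seen. The 3 libraries after the loss were compared with the 3 before it, and a gene was counted when it differed at least 2-fold without overlap. In the NADH dehydrogenase mutant 5 of 10 members (PHO84, PHO5, PHO81, PHM6 and VTC3) were lower after it, against 24.8% of all genes, and PHO89 was higher, against 5.24%. In the cox4 mutant the same 5 and PHO12 were lower, against 38.5%, and PHO89 was higher, against 4.84%. In wild type no member was lower, against 2.08%, and PHO89 was higher, against 3.02%. The geometric mean of PHO84 was 132 TPM after and 527 TPM before in the NADH dehydrogenase mutant, 65.9 and 407 TPM in the cox4 mutant, and 213 and 182 TPM in wild type. PHO89 was 14.3, 14.0 and 4.26 times higher after it in the NADH dehydrogenase mutant, the cox4 mutant and wild type. With the loss placed by TPM, 1 h earlier, the cox4 mutant had the same 6 members lower, against 20.7% of all genes, and none higher, against 3.44%. On that placing wild type had PHO5 lower, against 4.79%, and PHO89 higher, against 3.01%. With the loss placed as a ratio, the median gene had 0.713, 0.604 and 0.965 times its earlier level. The code letter changes between 13 and 14 h. In the NADH dehydrogenase mutant this change lies within the 3 libraries after the loss, and in wild type within the 3 before it. In the cox4 mutant the 3 libraries before and after carry different code letters. Within the first letter PHO84 was already at 257 TPM at 13 h against 532 TPM at 12 h, and within the second PHO89 was at 143 TPM at 15 h against 7.44 TPM at 14 h.

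**Figure D5:**
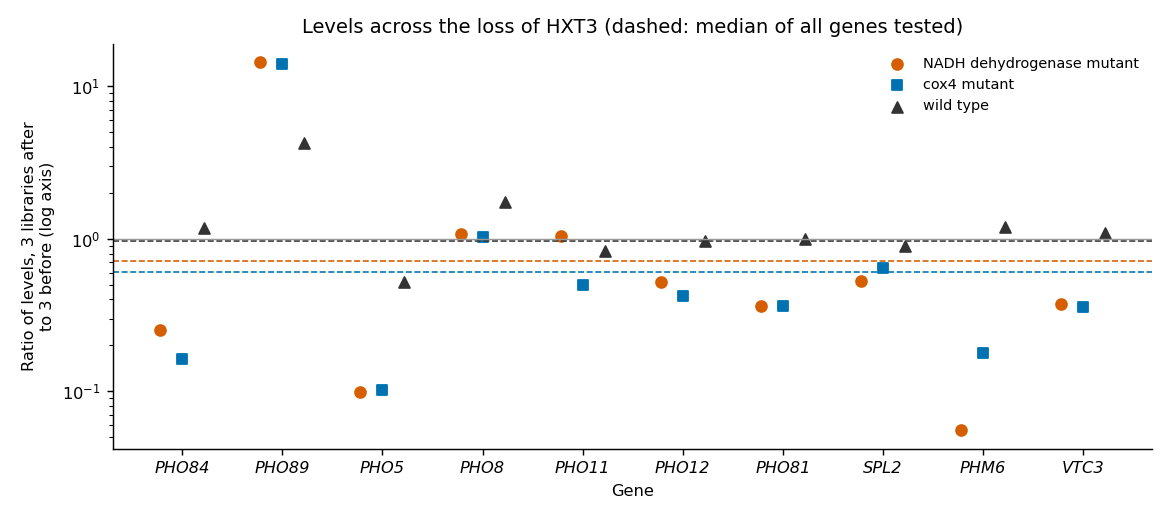
Ratio of levels (log axis) of the 10 members, geometric mean of 3 libraries after over 3 before the loss of HXT3, in the 3 strains, with dashed lines at the median of all genes tested. PHO89 stands at 14.3, 14.0 and 4.26, and PHO84 at 0.251, 0.162 and 1.18, in the NADH dehydrogenase mutant, the cox4 mutant and wild type.

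The rest of the pathway was counted over 32 further genes in 4 lists, none of which was called by limma between a mutant and wild type in the early window. Of all genes, 0.192% were called higher and 0.0524% lower there in the NADH dehydrogenase mutant, and 0.472% and 0.297% in the cox4 mutant. None of 32 is near those shares. At an unadjusted p under 0.05 there were 3 of 11 Pho4 targets and storage genes, 1 of 11 regulators, 1 of 7 carriers and 0 of 3 phosphatases in the NADH dehydrogenase mutant, and 2, 0, 2 and 0 in the cox4 mutant. The share of all genes under that unadjusted p was not counted. Of 11 regulators and inositol pyrophosphate enzymes, 3 were lower in the late NADH dehydrogenase mutant (PHO4, ARG82 and IPK1), against 29.4% of all genes, and 1 in the late cox4 mutant (PHO4), against 26.3%. The list medians were -0.47 and -0.57, above the medians of all genes of -0.65 and -0.61. PHO4, for the activator itself, had late levels from 1.55 through a median of 12.5 to 21.9 TPM in the NADH dehydrogenase mutant, from 1.99 through 6.79 to 10.9 TPM in the cox4 mutant, and from 32.7 through 47.8 to 69.6 TPM in wild type. Every late mutant library lay below every late wild-type library. The late difference of PHO4 was -2.29 ± 0.20 (adjusted p = 1.02e-13, limma) and -2.89 ± 0.20 (adjusted p = 6.64e-17), or -1.63 and -2.29 relative to the median gene. Late PHO4 transcript was low in both mutants, and SPL2 and PHO89 were high in the same libraries. Whether these levels are linked was not tested.

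Of 11 other Pho4 targets and phosphate scavenging or storage genes, PHM8 alone was called late, lower by 1.60 ± 0.16 in the NADH dehydrogenase mutant and by 1.73 ± 0.16 in the cox4 mutant, while the list medians of -0.29 and -0.30 lay above those of all genes. PHM8 encodes a phosphatase of nucleotides and lysophosphatidic acid. Its late level averaged 45.3 ± 7.7 TPM in the NADH dehydrogenase mutant, 42.5 ± 13.2 TPM in the cox4 mutant and 141 ± 30.3 TPM in wild type (SD, n = 9 times each). Of 7 other phosphate carriers and Pho84 sorting factors, 3 were lower late in the NADH dehydrogenase mutant (PHO91, PHO86 and MIR1) and 2 in the cox4 mutant (PHO86 and MIR1), against the same 29.4% and 26.3% of all genes. The list medians were -0.83 and -0.79. MIR1, the main mitochondrial phosphate carrier gene, had the largest of these differences, -1.37 ± 0.16 and -1.90 ± 0.16, or -0.71 and -1.29 relative to the median gene. PHO86, needed for Pho84 to leave the endoplasmic reticulum, had -1.15 ± 0.15 and -1.17 ± 0.15, or -0.50 and -0.57 relative to the median gene. None of 3 other phosphatases of the family (PHO3, DIA3 and PHO13) was called late by limma, although 2 of them in the NADH dehydrogenase mutant and 3 in the cox4 mutant had an unadjusted p under 0.05. The share of all genes under that p was not counted, so these counts cannot be set against it.

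In wild type, late against early, PHM8 rose by 2.53 ± 0.33 on the log2 scale, PIC2 by 3.44 ± 0.28, MIR1 by 2.52 ± 0.27, ARG82 by 1.09 ± 0.13 and PHO4 by 1.01 ± 0.30, each called by limma. PIC2 encodes another mitochondrial carrier of phosphate and copper. VTC4, HOR2, PPX1, PHO88 and PHO13 fell there, with -1.10 ± 0.28, -1.16 ± 0.36, -1.05 ± 0.21, -1.16 ± 0.33 and -1.45 ± 0.39 in that order. VTC4 encodes the polymerase subunit of the polyphosphate complex. Called higher were 1 of 11 Pho4 targets and storage genes, 2 of 11 regulators, 2 of 7 carriers and 0 of 3 phosphatases. Called lower were 3, 0, 1 and 1 in the same order of lists. Of all genes, 18.4% were called higher and 14.7% lower in wild type, late against early. Counted over all these lists, calls of each direction were about as frequent as among all genes.

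The members did not move as 1 block. Over the 24 libraries of a strain, the Pearson correlation of log2 levels between PHO84 and PHO89 was -0.84 in the NADH dehydrogenase mutant, -0.82 in the cox4 mutant and -0.07 in wild type. Between PHO84 and VTC3 it was 0.88, 0.87 and 0.15. Between PHO12 and VTC3 it was 0.91, 0.88 and 0.52. Libraries of 1 strain share a culture course, and these values are descriptions.

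Outside the members, the 3 genes most like PHO84 over all 72 libraries were LEU2 (Pearson correlation 0.90), HIS4 (0.90) and ILV2 (0.90). For PHO89 they were DRE2 (0.83), HOS4 (0.83) and IRA2 (0.82). For PHO5 they were CSH1 (0.84), DDR48 (0.83) and TPS2 (0.82). For SPL2 they were SUN4 (0.83), AMN1 (0.79) and MPC2 (0.78). For VTC3 they were VTC4 (0.94), SEC53 (0.93) and STH1 (0.93). Among these 15 genes, VTC4 is the one from the pathway lists.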

How the data were processed

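RNA was measured in 72 libraries of 3 strains. Per the labels' protocols, RNA came from filtered, frozen cells by hot phenol, ribosomal RNA was depleted, and libraries were made with a stranded kit. Per the submitters' processing notes, bcl2fastq 2.20.0.422 and Salmon 0.9.1 were used with sacCer3. The sources used here give neither a strand setting nor a transcript annotation. The deposited unit is TPM, with a floor of 0.1, which keeps no depth, so intervals for counting error cannot be given.

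Each library was rescaled to the same total of 5780 nuclear genes, because the other 23 entries held 0.147% to 0.881%. Genes with a mean of at least 1 were tested (5721) on log2(rescaled TPM + 1), with limma 3.58.1 in R 4.3.3, trended and robust, 2-sided. This scale understates changes of low genes. Strain comparisons used the time point as a block (42 residual degrees of freedom), and comparisons over time used 9 strain and window means (63). Samples of the 3 strains pair by their time of sampling, which the labels give. The test was checked on simulated data with independent noise around a course shared by the strains, so dependence between neighbouring times was not covered. Alternatives were the median of ratios, deposited TPM, pseudocounts 0.1 and 5, no filter, adjusted p alone, no block, summed copies, other windows and each time left out.

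Motifs and sequences were read from the RefSeq R64 genome with Biopython 1.88. The members, the lists and the rule for naming genes were chosen with earlier results of these data known. All 10 members are named. Of the other lists every gene is counted, and called genes of the late comparisons with wild type and of wild type over time may be named, at most 4 per list. For 5 members the 3 most alike genes are named.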

Additional observations from a re-analysis of the deposited data

Results flagged for a closer look

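A rule for libraries that stand apart flags about 1 in 20 groups of independent, normally spread values, which levels that rise or fall over time are not. In 99 groups of 7 to 9 times, 9 had a highest library that stood apart from the others of its window. In the early window these were PHO5 at 8 h, 128 TPM in the NADH dehydrogenase mutant and 152 TPM in wild type, at the foot of its peak, and PHO89 at 0 h, 32.0 TPM in the cox4 mutant. In the middle window SPL2 stood at 102 TPM at 9 h and PHO4 at 46.4 TPM at 11 h in the NADH dehydrogenase mutant. In the same window wild type had PHO89 at 9.91 TPM and PHO8 at 168 TPM, both at 16 h, and PHM6 at 34.6 TPM at 11 h. In the late window PHO11 stood at 12.2 TPM at 46 h in the NADH dehydrogenase mutant.

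For members and PHO4, the test of a mutant and wild type against each other on their late minus early change passed both thresholds in 15 cases (limma). For the NADH dehydrogenase mutant the log2 difference was -1.82 for PHO84, 2.04 for PHO89, -1.07 for PHO8, -1.16 for PHO11, -1.36 for PHO12, 1.10 for SPL2, -1.24 for PHM6, -1.02 for VTC3 and -2.89 for PHO4. For the cox4 mutant it was -1.72 for PHO84, 1.57 for PHO89, -1.30 for PHO11, -1.38 for PHO12, -1.32 for PHM6 and -3.23 for PHO4.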

How the results depend on the processing

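Of 60 member results that were called, 46 kept their call under the median of ratios and 14 did not. All 60 kept it on deposited TPM and with no filter on low values, 58 with a pseudocount of 0.1 and 55 with a pseudocount of 5. Called members in the change from early to late, NADH dehydrogenase mutant against wild type, numbered 8, against 4 under the median of ratios, 5 with a pseudocount of 5 and 4 with the late window at 28 to 58 h. Those of the cox4 mutant numbered 5, against 3 with no time point block and 3 with the late window at 28 to 58 h. In the late window against wild type 2 members were called in each mutant, against 4 in each by adjusted p alone and 5 in the cox4 mutant at 18 to 24 h. In the middle window the cox4 mutant had 2, against 1 with no block, 4 at 14 to 16 h and between 1 and 2 with single times left out. The NADH dehydrogenase mutant had 2, against 0 at 9 to 13 h (limma; 5 at an unadjusted p under 0.05), and wild type against its early window had 4, against 2 at 9 to 13 h. At 14 to 16 h, past its peak, PHO5 turned to -0.20 in the NADH dehydrogenase mutant and -0.48 in the cox4 mutant against the early window. Of 27 called results of the fit with the time point block, 22 kept their call without it. Shares of all genes are not given for these alternatives, so their counts of members show only how far the calls depend on the settings. The late window alternatives and the placing of the HXT3 loss by TPM were added after the values were seen. The causes of these changes were not tested. With no replicate culture stated, the spread between cultures is unknown, and TPM keep no depth, so what depth limits cannot be given.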
